A study of Mus musculus with 6 samples.

Results

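Small nucleolar RNAs (snoRNAs) were followed in B cell progenitors by 56 probe sets, of 28940 in the deposited table, whose single annotated symbol begins with Snord or Snora and a number. They stand for 51 snoRNAs, 31 of the box C/D kind on 33 probe sets and 20 of the box H/ACA kind on 23. The arrays hold pro-B and pre-B cells sorted from unmanipulated BALB/c mice, an inbred strain, 3 arrays from old animals of 24 months and 3 from young animals of 2 months. The labels do not say how many mice went into each array, and p-values therefore cover only the spread among arrays, which may be technical. Levels are on the log2 intensity scale, and a difference is the old mean minus the young mean.

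Most snoRNAs are cut from introns of host genes after splicing and work in the nucleolus, where ribosomal RNA (rRNA) is made. Box C/D snoRNAs pair with rRNA and direct 2'-O-methylation by fibrillarin, and box H/ACA snoRNAs direct pseudouridylation by dyskerin. A few, among them U3, U8, U14, U17 and U22, are needed to cut the rRNA precursor. Dividing progenitor cells make many ribosomes and so draw on all of these RNAs. The RNA was isolated on silica columns, which as background retain RNA of snoRNA length less well than mRNA. A probe set inside an intron also does not tell the finished snoRNA from unspliced host RNA, and in bulk RNA fewer cells with a transcript and less of it per cell cannot be told apart.

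Old replicates 1 and 2 stood apart from the other 4 arrays. A background level was set on each array at the 95th percentile of 1375 olfactory and vomeronasal receptor probe sets, called the receptor level below. It was 6.30, 6.41 and 5.18 on old replicates 1, 2 and 3, against 4.81, 4.84 and 4.60 on young replicates 1, 2 and 3. Of 23410 probe sets with a gene, 14.5%, 13.1% and 45.6% lay above it in old cells, against 51.5%, 51.1% and 55.6% in young cells. Of 13 pro-B and pre-B cell markers 6, 5 and 12 lay above it on the old arrays, and 13 on each young array, with Ebf1 and Il7r below it on old replicates 1 and 2. Neutrophil and myeloid markers were also present, with 2, 3 and 8 of 9 above it in old cells against 8, 8 and 9 in young cells. Their summed log2 level was 56.0 to 75.7 in old cells against 76.3 to 82.1 in young cells, and their part in the results was not tested. T cell, erythroid, plasma cell and megakaryocyte markers, 4 genes each, had 0 to 1, 0 to 2, 0 to 3 and 0 to 1 genes above the level on an old array, against 0 to 3, 3 to 4, 3 and 1 to 2 on a young array.

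Most snoRNAs lay within the receptor level on old replicates 1 and 2, and more of them exceeded it on old replicate 3. Of the 56 probe sets 7, 10 and 28 lay above the receptor level on old replicates 1, 2 and 3, against 36, 36 and 45 in young cells. Above it on all 3 young arrays were 18 of 33 box C/D and 15 of 23 box H/ACA probe sets, and on all 3 old arrays 2 and 0. The pair above it on all 6 arrays was Snord22, whose smallest margin was on old replicate 2, and Snord8. Snord95 and both probe sets of Snora30 fell just short of the level on old replicate 2 alone, at 6.40, 6.38 and 6.38. Above it on no array were 8 box C/D and 2 box H/ACA probe sets, those of Snord15a, Snord37, Snord42a, Snord42b, Snord52, Snord58b, Snord73a, Snora16a and Snora2b. No level was measured for these, which is no sign of their absence.

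**Figure D1:**
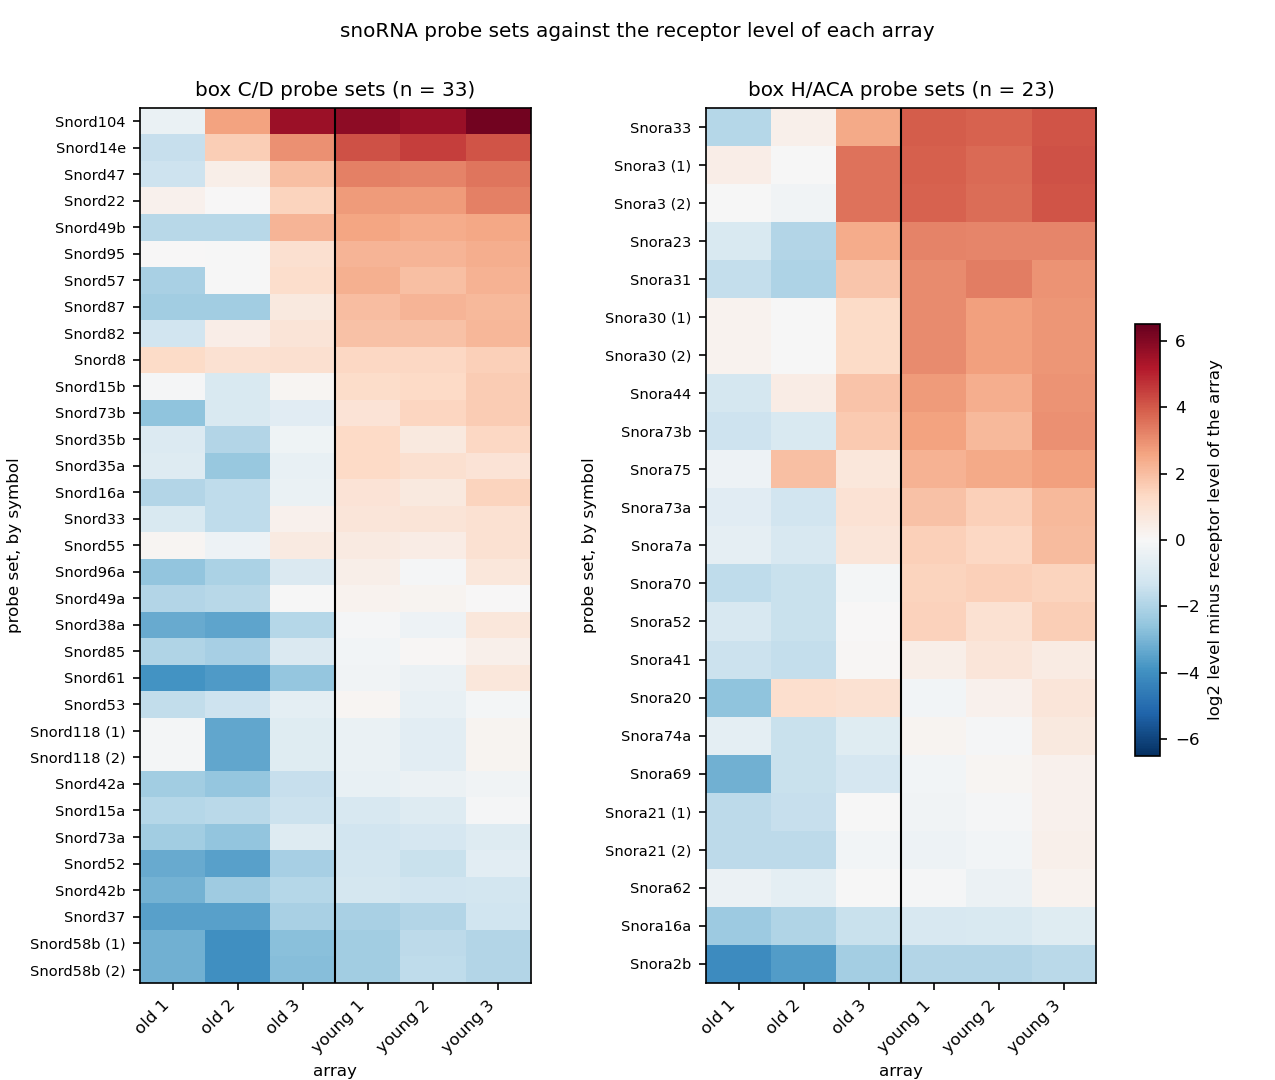
Colour shows the log2 level of each snoRNA probe set minus the receptor level of the same array, for 33 box C/D (left) and 23 box H/ACA (right) probe sets, with old arrays left of young ones and numbers in brackets marking probe sets of the same symbol. Red squares lie above the receptor level: 7, 10 and 28 probe sets on old replicates 1, 2 and 3, against 36, 36 and 45 on the young arrays.

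Of the snoRNA probe sets, 25 of 33 box C/D and 17 of 23 box H/ACA had a lower mean in old cells, against 38.1% of all tested probe sets. The median difference was -0.68 for box C/D and -0.96 for box H/ACA, against 0.35 for all tested probe sets. The 3 old values lay below all 3 young values at 17 box C/D and 11 box H/ACA probe sets (27 snoRNAs), where 22.9% of all tested probe sets did so. Of these 11 box C/D and 11 box H/ACA probe sets were above the receptor level on all 3 young arrays. That filter uses the young arrays alone and so favours lower old values, and these counts are no support for a fall. The 3 old values lay above all young values for Snord8, Snord55, Snord73a and Snora62, where 36.1% of all tested probe sets did so. All tested probe sets are a mixed background, since 10039 of 23410 lay above the receptor level on no array. In the comparison of 3 old with 3 young arrays 0 snoRNA probe sets passed limma's test at an adjusted p under 0.05, as did 0.00% of all tested probe sets. The smallest adjusted p was 0.101, and 15 box C/D and 11 box H/ACA probe sets had an unadjusted p under 0.05, as did 46.8% of all tested.

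A group of snoRNAs was lower on all 3 old arrays by about the same amount, old replicate 3 included. Snord22 is U22, a box C/D RNA needed to make 18S rRNA, and its level was 6.58, 6.41 and 6.65 on old replicates 1, 2 and 3, against 7.58, 7.63 and 7.87 in young cells. The old arrays had an SD of 0.12 (n = 3) and all lay below the young ones. The difference was -1.15 ± 0.21 (SE, adjusted p = 0.101 with limma). Snora30, a box H/ACA RNA from an intron of Srcap, stood at 6.51, 6.38 and 6.42 in old cells, against 7.90, 7.52 and 7.48 in young cells. Its 2 probe sets have the same values and count as 1 measurement, with a difference of -1.20 ± 0.22 (SE, adjusted p = 0.101 with limma). Snord95, from an intron of the ribosomal scaffold gene Rack1, stood at 6.33, 6.40 and 6.24 in old cells, against 7.02, 7.04 and 6.96 in young cells. Its difference was -0.68 ± 0.19 (SE), smaller than for Snord22 and Snora30, again without overlap. Quantile normalization shrank these differences, to -0.24 for Snord22, -0.31 for Snora30 and 0.06 for Snord95, where the sign turned (adjusted p = 0.499, 0.461 and 0.876 with limma).

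On old replicates 1 and 2 Snord22, Snora30 and Snord95 stood close to the receptor level, which was 6.30 and 6.41 there. The size of their fall on these arrays is therefore uncertain. Other members of this group lay below the level on all 3 old arrays. Snora70, from the ribosomal protein gene Rpl10, stood at 4.64, 4.98 and 5.06 on the old arrays, none above the receptor level, against 6.25, 6.38 and 6.04 in young cells. Snord61, from Rbmx, had the smallest unadjusted p among the snoRNAs (0.000144 with limma) and stood at 2.43, 2.70 and 2.69 in old cells, against 4.55, 4.48 and 5.32 in young cells. Snord38a stood at 3.05, 2.96 and 3.33 in old cells, against 4.72, 4.50 and 5.33 in young cells. For both of these only young replicate 3 lay above the receptor level. No size is given for these 3 snoRNAs. As with Snora70, the level was exceeded on all young arrays and on no old array by Snord16a, Snord35a, Snord35b, Snord49a and Snord73b. Of these, Snord49a overlapped between the groups.

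**Figure D2:**
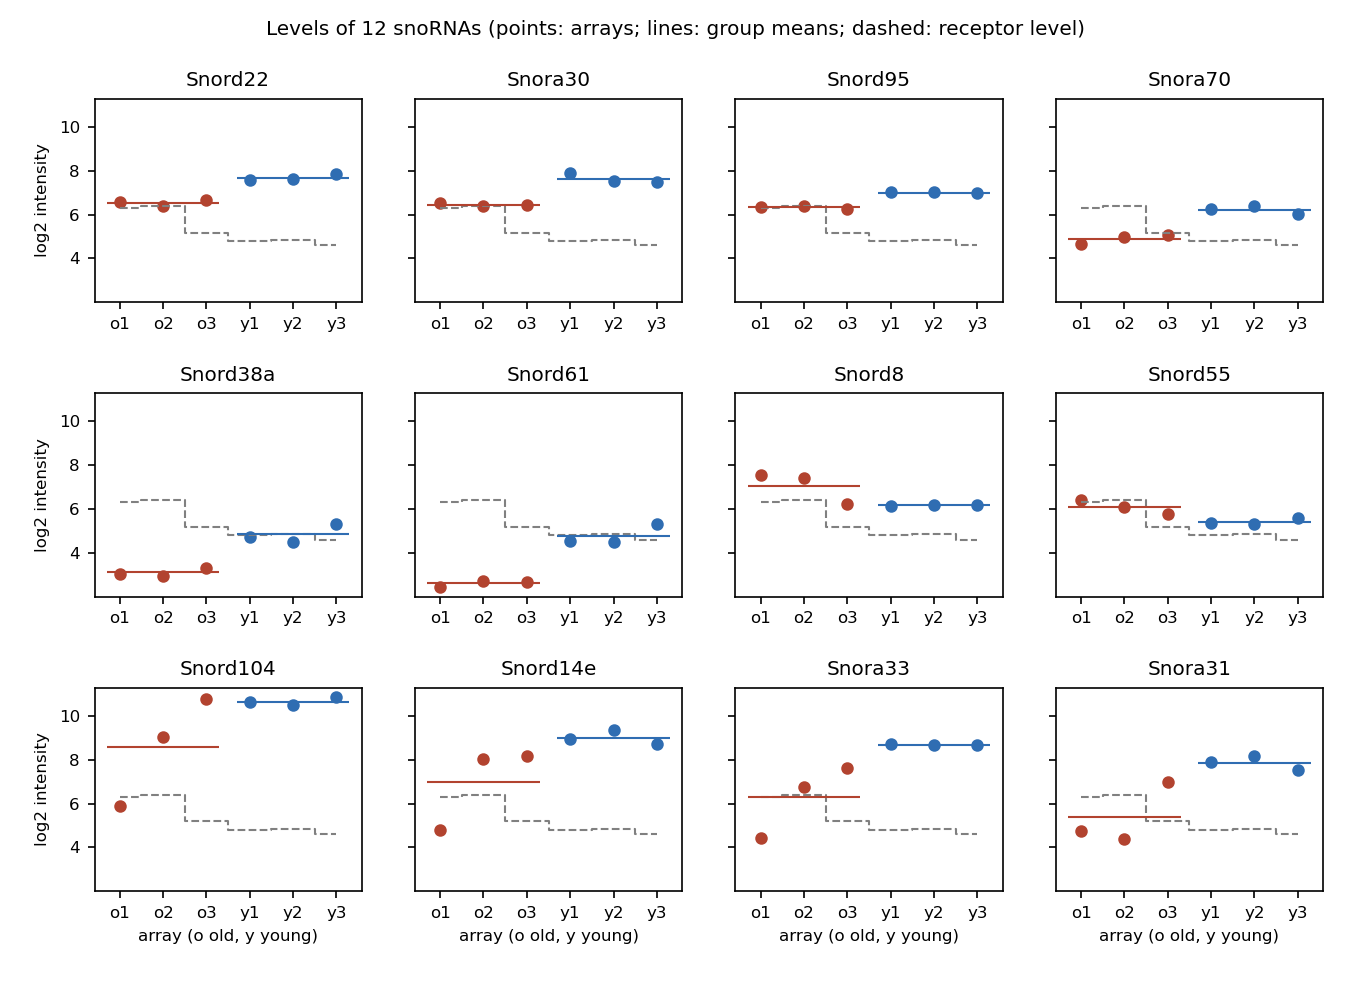
Each panel plots the log2 intensity of a snoRNA on the 3 old (red) and 3 young (blue) arrays, with group means as lines and the receptor level of each array dashed. The top row and the first pair of the middle row show snoRNAs whose old values lie together below all young values; Snord8 and Snord55 lie above them; in the bottom row the old arrays are spread, as for Snord104 at 5.89, 9.04 and 10.76.

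A second pattern was a wide spread within the old group. Snord104, which guides methylation of 28S rRNA, stood at 5.89, 9.04 and 10.76 in old cells, against 10.61, 10.47 and 10.85 in young cells. Old replicate 3 lay among the young values, replicate 1 lay below the receptor level, and replicate 2 lay between. Snord14e, a copy of U14 in an intron of the chaperone gene Hspa8, stood at 4.81, 8.01 and 8.17 in old cells, against 8.93, 9.34 and 8.71 in young cells. U14 takes part in making 18S rRNA. Snora33, from Rps12, stood at 4.44, 6.74 and 7.64 in old cells, against 8.73, 8.65 and 8.67 in young cells, and Snord47, from Gas5, at 4.97, 6.78 and 7.14, against 8.11, 8.04 and 8.07. In these 4 snoRNAs old replicate 1 was the lowest array and below the receptor level, while old replicate 2 was above it. Snord57, from Nop56, also had old replicate 1 lowest, at 4.20, 6.40 and 6.30 in old cells, against 7.10, 6.79 and 6.85 in young cells, with old replicate 2 just short of the level.

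In another pattern, old replicates 1 and 2 were both low and old replicate 3 lay near or among the young arrays. Snora3, from Rpl27a, stood at 6.76, 6.39 and 8.71 in old cells, against 8.68, 8.51 and 8.72 in young cells, and its second probe set at 6.29, 6.20 and 8.69, against 8.66, 8.46 and 8.69. Snord49b stood at 4.49, 4.59 and 7.41 in old cells, against 7.37, 7.26 and 7.10 in young cells. Snora23, from Ipo7, stood at 5.34, 4.50 and 7.60 in old cells, against 8.02, 7.99 and 7.77 in young cells. Without old replicate 3 these 3 were lower in the old group, with adjusted p between 1.39e-05 (Snord49b) and 9.5e-05 (Snora23) in limma. In that fit 30.2% of all tested probe sets were lower, and 82.4% differed in one direction or the other. The 3 were grouped here by their low old replicates 1 and 2, so that fit is no separate support. No size is given, since Snord49b and Snora23 lay below the receptor level on old replicates 1 and 2, and Snora3 on at least one of them. Snora31, from Tpt1, stood at 4.74, 4.39 and 6.98 in old cells, against 7.88, 8.16 and 7.54 in young cells, and Snord87 at 4.06, 4.13 and 5.80, against 6.83, 7.04 and 6.70. For these last members even old replicate 3 lay below every young array. Snora73a and Snora73b, the U17 RNAs that take part in making 18S rRNA, showed the same order, at 5.57, 5.17 and 6.13 (Snora73a) and 4.98, 5.43 and 6.86 (Snora73b) in old cells, against 6.72, 6.37 and 6.69, and 7.41, 6.97 and 7.57, in young cells.

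Few snoRNAs stood higher on the old arrays. Snord8 was at 7.55, 7.42 and 6.21 in old cells, against 6.14, 6.20 and 6.17 in young cells, above the receptor level on each. Old replicates 1 and 2 were more than 1 log2 above the young arrays, while old replicate 3 was within 0.1 of each young array. Without old replicate 3 the difference was 1.31 ± 0.13 (SE, adjusted p = 0.000169 with limma), and for old replicate 3 alone it was 0.04. In the fit without old replicate 3, 52.2% of all tested probe sets were higher and 82.4% differed in one direction or the other. The receptor level was also higher on old replicates 1 and 2, at 6.30 and 6.41, against 4.60 to 4.84 on the young arrays. Whether Snord8 rose beyond this background was not tested. Snord55 stood at 6.42, 6.08 and 5.78 in old cells, against 5.37, 5.31 and 5.61 in young cells, with old replicate 2 below the receptor level. Snora62, from Rpsa, stood at 5.92, 5.78 and 5.18 in old cells, against 4.74, 4.44 and 4.81 in young cells, and only young replicate 3 lay above the level, so no size is given. Snora75, from Ncl, was split within the old group at 5.96, 8.36 and 5.92, against 7.09, 7.30 and 7.25 in young cells. Snora20, from Tcp1, was split likewise at 3.70, 7.47 and 6.16 in old cells, against 4.65, 5.14 and 5.38 in young cells. The U8 RNA Snord118, which is needed for 28S rRNA and has no enclosing gene here, stood at 6.19, 3.04 and 4.37 in old cells, against 4.37, 4.16 and 4.78 in young cells. It was above the receptor level on young replicate 3 alone, and its 2 probe sets have the same values.

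Because old replicates 1 and 2 stood apart, the snoRNAs were also read with and without them. The fit of old replicate 3 alone was chosen after seeing the data. With old replicate 3 alone against the 3 young arrays, 13 of 33 box C/D and 7 of 23 box H/ACA probe sets (19 snoRNAs) were lower at an adjusted p under 0.05 with limma, where 5.24% of all tested probe sets were lower. Among tested probe sets above the receptor level on all 3 young arrays 1169 of 11635 were lower. Snord73a and Snora20 were higher, where 1.76% of all tested probe sets were higher. The snoRNA counts themselves were not limited by the receptor level. They include Snord42a and Snord73a, above it on no array, and Snord38a and Snord61, above it on young replicate 3 alone. This fit takes the lone old array to vary as the young arrays do, so it compares that array with the young ones, not the ages. The lower ones included Snord22 (-1.04 ± 0.15, SE, adjusted p = 0.016), Snora33 (-1.05 ± 0.13, SE, adjusted p = 0.0105) and Snora75 (-1.29 ± 0.14, SE, adjusted p = 0.00834), all with limma. Old replicate 3 lay below all 3 young arrays at 38 of the 56 probe sets, where 31.8% of all tested probe sets did so, and above them at 10, where 41.7% did so. Its median difference from the young mean was -0.61 over box C/D and -0.41 over box H/ACA probe sets, against 0.05 over all tested probe sets.

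With old replicates 1 and 2 alone, 19 box C/D and 14 box H/ACA probe sets were lower with limma, where 30.2% of all tested probe sets were lower. Snord8, Snord55 and Snora62 were higher, where 52.2% of all tested were higher. Both directions together took 82.4% of all tested probe sets. With array weights, which limma estimated without full convergence, 22 box C/D and 14 box H/ACA probe sets were lower and 4 of each were higher, where 31.4% of all tested were lower, 54.0% higher and 85.4% one or the other. The fits share the young arrays, so they are not independent of each other. The SDs of Snord22, Snora30 and Snord95 over the 3 old arrays were 0.12, 0.07 and 0.08, while those of Snord104, Snora33 and Snord49b were 2.47, 1.65 and 1.65.

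Of the 51 snoRNAs, 50 lie inside another gene in the RefSeq table of the GRCm38.p6 assembly, by position and without regard to strand. Their 40 smallest enclosing genes, taken here as hosts, include ribosomal protein genes for 21 snoRNAs and long non-coding RNA genes for 13. Snord8 lies in both Gm26590 and Chd8. A probe set of the host's own was present for 27 snoRNAs in 23 hosts, and the one with the highest mean was used. On old replicate 3 the snoRNAs lay lower than their hosts did, each relative to its young mean. The median over the 27 pairs was -0.69 for the snoRNAs and -0.05 for the hosts, and the snoRNA difference was the lower one in 18 pairs. In the 13 pairs with both probe sets above the receptor level on old replicate 3 and on all young arrays, the medians were -0.82 for the snoRNAs and -0.07 for the hosts, and the snoRNA was the lower one in 11. On old replicates 1 and 2 both were above the level in 1 and 5 of the 27 pairs, so the falls there are not compared.

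On old replicate 3, Rps12, the host of Snora33, differed from its young mean by 0.17 on the probe set of highest mean and by -0.01 to 0.17 over its 14 probe sets, while Snora33 differed by -1.05. Srcap, a chromatin remodeller and host of Snora30, differed by -0.09 on the same array, while the snoRNA differed by -1.21. Ncl, the nucleolar protein nucleolin, differed by -0.07, while Snord82 differed by -0.69 and Snora75 by -1.29. These 3 hosts were close to their young means while their snoRNAs were below. Gas5, a non-coding host, gave no such contrast, since its 4 probe sets differed by -1.07 to 0.03 and Snord47 by -0.93. The Gas5 probe set of highest mean is the one at 0.03, so the pair counts above among those with the snoRNA lower. Other hosts with several probe sets were likewise counted by 1 of them, so the counts depend on that choice.

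Of the hosts, 10 hold 2 members each. Rack1 holds Snord95 and Snord96a, and Snord96a read 3.72, 4.34 and 4.25 in old cells, against 5.19, 4.78 and 5.33 in young cells. In both Rack1 members the old values lay below all young ones, but Snord96a was above the receptor level on 0 old and 2 young arrays, so no size is given. Rps3a1 holds Snord73a, below the receptor level on every array, and Snord73b, which read 3.69, 5.40 and 4.44 in old cells, against 5.72, 6.24 and 6.27 in young cells.

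**Figure D3:**
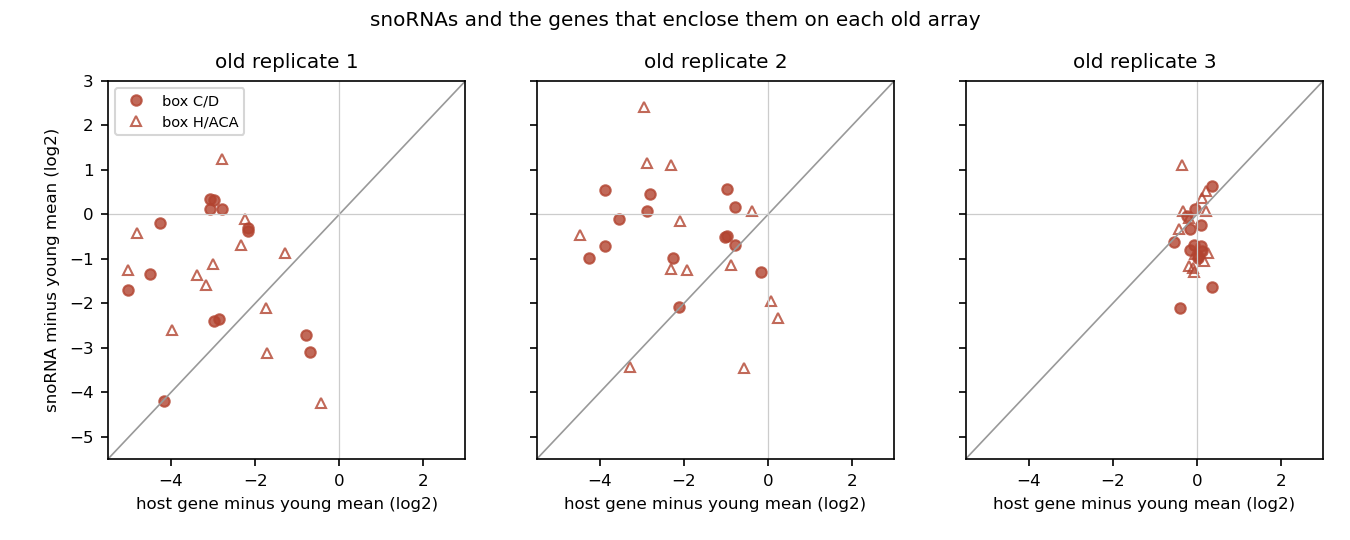
Each point is 1 of 27 snoRNAs, placed by the difference of its host gene (x axis) and of the snoRNA (y axis) from their young means on the log2 scale, on old replicates 1, 2 and 3. On replicates 1 and 2 most snoRNAs are within the receptor level, so sizes there are not compared, while on replicate 3 the hosts gather near 0 and 18 of 27 snoRNAs lie below the line.

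The members' own sequences were not used here, and the starts of their host genes are shown instead, since a snoRNA in an intron is transcribed from its host's promoter. Host genes of vertebrate snoRNAs often belong to the TOP class, whose transcripts begin with a run of pyrimidines that ties their translation to growth signals. The hosts below are those of Snord22, Snord95, Snora3, Snora33, Snord47 and Snora30, with 30 bases before and 25 from the annotated start. Capitals mark stretches of 8 or more C or T from 10 bases before the start onward. They come from RefSeq, build GRCm38.p6, read 5′ to 3′ on the gene's strand.
Snhg1, chr19:8723457-8723511, plus strand: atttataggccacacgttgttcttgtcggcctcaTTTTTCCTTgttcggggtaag
Rack1, chr11:48800330-48800384, plus strand: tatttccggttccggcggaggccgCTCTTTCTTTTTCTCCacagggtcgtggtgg
Rpl27a, chr7:109519165-109519219, plus strand: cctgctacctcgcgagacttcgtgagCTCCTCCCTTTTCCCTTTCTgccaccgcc
Rps12, chr10:23787185-23787239, minus strand: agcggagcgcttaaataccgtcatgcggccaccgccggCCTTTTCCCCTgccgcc
Gas5, chr1:161035136-161035190, plus strand: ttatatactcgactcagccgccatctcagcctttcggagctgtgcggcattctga
Srcap, chr7:127511953-127512007, plus strand: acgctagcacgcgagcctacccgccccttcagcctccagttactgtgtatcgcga
Such a stretch was found near 11 of 32 annotated starts (34.4%) of the 30 hosts that the promoter table holds, and near 12.97% of all 32851 starts in it. On the other strand, where it reads as A or G, it was found near 1 of the 32 host starts and 15.4% of all. The length of the stretch was chosen after these sequences were seen, and a match is a description of the letters only. Hosts with a stretch, as Rack1 and Rps12, and hosts without one of this length, as Srcap and Gas5, both had snoRNAs lower on old replicate 3. Gas5 has a run of C and T shorter than 8 bases at the annotated start shown. Another annotated Gas5 start, not printed, had no stretch either. The mark does not sort hosts into or out of the TOP class.

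All 8 genes of the core snoRNA proteins had lower old means, as did 38.1% of all tested probe sets. In the comparison of 3 old with 3 young arrays 0 of 8 passed the threshold, as did 0.00% of all tested. Fbl, the methyltransferase fibrillarin, stood at 7.69, 7.40 and 8.34 in old cells, against 9.18, 8.90 and 9.34 in young cells, above the receptor level on all 6. Nop56, a scaffold of the same particle, stood at 7.59, 7.38 and 7.86 in old cells, against 8.34, 8.37 and 8.48 in young cells. On these probe sets the groups did not overlap, with differences of -1.33 ± 0.30 and -0.79 ± 0.22 (SE, adjusted p = 0.101 for each with limma). A second Fbl probe set, above the receptor level on 0 old and 2 young arrays, differed by 0.07. Dkc1, the pseudouridine synthase dyskerin, stood at 3.41, 3.51 and 6.28 in old cells, against 7.16, 7.24 and 7.61 in young cells, with old replicates 1 and 2 below the receptor level. Nop58, Snu13, Nhp2 and Nop10 also had lower old values without overlap, as 22.9% of all tested probe sets did. Nop58 and Nhp2 were below the receptor level on old replicates 1 and 2, Snu13 on replicate 2 and Nop10 on replicate 1. Gar1, the fourth protein of the H/ACA particle, overlapped between the groups. It stood at 6.43, 6.74 and 6.71 in old cells, against 6.67, 6.64 and 7.06 in young cells. On old replicate 3 alone Fbl (adjusted p = 0.0456), Nop58 (0.0295) and Dkc1 (0.0249) were lower with limma, where 5.24% of all tested probe sets were lower.

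**Figure D4:**
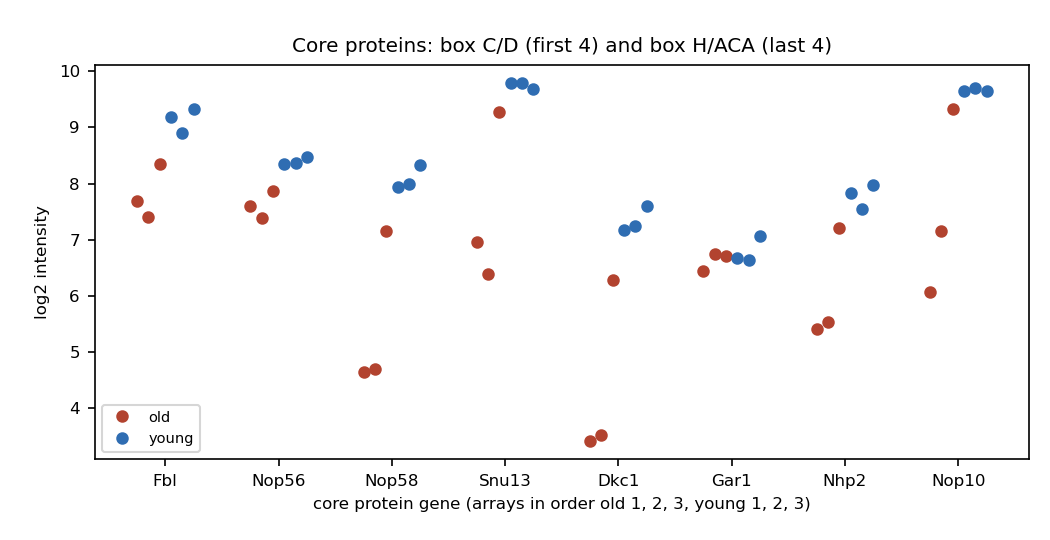
Points give the log2 intensity of the 8 core protein genes of snoRNA particles on the 3 old (red) and 3 young (blue) arrays, each gene by its probe set of highest mean. Old values lie below all young values in each gene except Gar1, at 6.43, 6.74 and 6.71 against 6.67, 6.64 and 7.06.

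Of 12 measured assembly factors 11 had lower old means and 0 passed the threshold, and in 7 the old values lay below all young ones, where 38.1% of all tested probe sets had a lower old mean and 22.9% lay below without overlap. Among them were Znhit6, which helps build box C/D particles, Ruvbl1, an ATPase of the same step, and Tgs1, which caps snoRNAs transcribed on their own, all with an adjusted p equal to 0.101 in limma. Of the old arrays only replicate 3 was above the receptor level for these 3 genes. Naf1, which H/ACA particles need to form, lay below the receptor level on all 3 old arrays and on young replicate 1. Of 7 genes of RNA decay and end trimming 7 had lower old means and 5 lay below without overlap. The shares of all tested probe sets were the same 38.1% and 22.9%, and 0 of the 7 passed the threshold. On old replicates 1 and 2, 0 and 1 of the 7 lay above the receptor level, against 7 on old replicate 3 and on each young array. Parn, which trims H/ACA RNAs, stood at 4.64, 5.23 and 6.15 in old cells, with a young mean of 6.66 ± 0.09 (SD, n = 3). It was below the receptor level on old replicates 1 and 2. Of the non-coding hosts with a probe set of their own, Snhg5 read 7.26, 8.10 and 9.15 in old cells, with a young mean of 9.98 ± 0.21 (SD, n = 3), and Snhg17 stood at 7.02, 7.26 and 6.14, against 6.02 ± 0.06 (SD, n = 3). Neither passed the threshold (adjusted p = 0.101 and 0.105 with limma).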

How the data were processed

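The authors deposited one intensity per probe set, made with RMA as the submitters' processing notes name it, from arrays hybridised with amplified RNA (100 ng per sample, per the labels' protocols). Its version, its settings and a genome build are not given in these sources. The values are linear (3.58 to 8502), so log2 was taken first. All 6 sample columns were used.

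Members and lists were chosen with earlier results of these data known. Probe sets were named through the platform's annotation, and 41 probe sets that pair a snoRNA with other symbols are not members. The 23410 probe sets with a gene were fitted with limma 3.58.1 (R 4.3.3), age as the only factor, moderated variances, 2-sided, Benjamini-Hochberg over all of them, threshold 0.05. The code was tested on simulated data. Tables were made with pandas 2.3.3 and numpy 2.4.6 under Python 3.11.15, and plots with matplotlib 3.10.9. The number of arrays limits the precision.

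Named snoRNAs were taken by a rule: the 8 box C/D and 6 box H/ACA probe sets of highest young mean, up to 4 of largest rise and fall per class among those above the receptor level on a whole group, the 3 of smallest p per class, and those that process the rRNA precursor. Others in the text were named after their values were seen, and the fit of old replicate 3 alone was added then. Leaving out each array in turn was planned. The markers of other cell types were T cell, neutrophil and myeloid, erythroid, plasma cell and megakaryocyte genes. The groups share replicate numbers, and deviations of same-numbered arrays correlated at 0.157, 0.15 and 0.279. By the limit of 0.1 they were treated as paired in an alternative fit. Old replicate 1 correlated as well with young replicate 2 (0.153), and the labels do not state a pairing. One host gene is not reported here.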

Additional observations from a re-analysis of the deposited data

How the results depend on the processing

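Over all tested probe sets, box C/D, box H/ACA and the 24 named snoRNA probe sets 0 were called with limma, and 0 remained called with the replicate number as a block (replicate block), after centring or quantile normalization. Over the first 3 of these sets 0 were also called without dim probe sets, over the whole table, with trended robust moderation and at an adjusted p under 0.1. With array weights 19998, 26 and 18 were called (all, box C/D, box H/ACA). Leaving out each array in turn gave 0 to 19285 over all, 0 to 21 for box C/D, 0 to 15 for box H/ACA and 0 to 22 named, where the high counts are those without old replicate 3. With old replicate 3 alone 1638, 14, 8 and 10 were called. The box C/D median ranged from -0.70 to -0.54 when arrays were left out, lowest in size without young replicate 3, and was -1.02 after centring and -1.03 for members at or above the mean receptor level. The box H/ACA median ranged from -1.08 to -0.72, and was -0.54 after quantile normalization and -0.41 for old replicate 3 alone. Centring moved the median of all probe sets to 0.0036, against 0.35 without it, and quantile normalization to 0.046. On all 3 old arrays 2 members lay above the receptor level, against 10 with the 90th percentile, 0 with the 99th, 6 with single-symbol receptor probe sets and 28 on old replicate 3 alone, so that count depends on the level chosen. Signs turned for Snord118 (-0.25 centred, -0.0092 quantile, -0.067 for old replicate 3 alone, -0.73 to 0.84 over arrays left out), for Snord95 (0.064 quantile), and for Snord104 (0.12), Snord49b (0.16) and Snora3 (0.077 and 0.085) with old replicate 3 alone. The causes were not tested.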

Other observations

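U3, the box C/D RNA that opens rRNA precursor processing, is listed under older symbols and is not among the members. Probe sets shared by the Rnu3b genes stood at 9.27, 8.99 and 9.61 in old cells, against 8.94, 8.92 and 9.49 in young cells, above the receptor level on all 6, with a difference of 0.17 ± 0.27 (SE, adjusted p = 0.596 with limma). The 4 probe sets have the same values and count as 1 measurement. Rnu3a stood at 6.99, 7.24 and 9.01 in old cells, against 8.81, 8.69 and 9.36 in young cells. These were named after their values were seen.

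The Snord116 family, imprinted and best known from neurons, is on 24 probe sets that share symbols and hold 7 distinct sets of values. All 24 lay below the receptor level on all 6 arrays, with medians of 5.32, 5.59 and 3.57 in old cells, against 3.17, 3.12 and 2.91 in young cells. No rise is therefore read from them, and the cause of the difference was not tested. A further U14 probe set, shared by Snord14c, Snord14d and Hspa8, stood at 4.0, 6.94 and 7.12 in old cells, against 8.57, 9.11 and 8.57 in young cells, in the order seen for Snord14e. Another, shared by Snord14a and Rps13, stood at 4.34, 8.46 and 7.06 in old cells, against 7.58, 7.85 and 7.70 in young cells. There old replicate 2 lay above all young values, unlike in Snord14e.

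Other small RNAs did not share 1 pattern. Over 300 microRNA hairpin genes the median difference was 0.72, against 0.35 for all tested probe sets. A lower old mean was found for 16 of them, against 38.1% of all tested probe sets. Above the receptor level were 57 to 71 on an old array and 76 to 82 on a young array. Most hairpins thus lay within background, which was itself higher on old replicates 1 and 2, so no rise is read from them. Of 7 further small RNA genes 1, Rn7sk, had a lower old mean, against 38.1% of all tested probe sets. The median difference over the 7 was 0.60, and 4 of them lay above the receptor level on each array. Rn7sk, which holds back transcription elongation, stood at 8.45, 6.72 and 12.15 in old cells, against 11.98, 11.89 and 11.79 in young cells. Rny3, a Ro-binding RNA, stood at 8.25, 8.37 and 7.56 in old cells, against 6.40, 6.73 and 6.34 in young cells. Scarna17 stood at 10.39, 7.32 and 8.47 in old cells, against 7.48, 7.73 and 8.55 in young cells.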
